A study of Rattus norvegicus with 20 samples.

Results

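Oesophageal tissue from rats treated with omeprazole was compared with tissue from untreated rats after both groups had surgically induced reflux oesophagitis. The comparison rests on 8 of the 20 oesophageal arrays of the series, 4 labelled omeprazole 30 mg/kg and 4 labelled untreated, and the arrays were chosen by those labels. All animals were Wistar rats, with 4 animals per group, and their ages were not given in the sources used here. Omeprazole was started 7 days ahead of the operation and continued over the 10 days that followed, after which the oesophagus was taken. The other groups were sham-operated rats without oesophagitis, and rats with oesophagitis given the herbal preparation STW5 at 0.5 ml/kg (low dose) or 2 ml/kg (high dose) on the same schedule. Oesophageal tissue holds several cell types, so fewer cells of a type and less RNA per cell cannot be told apart in any result here.

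Omeprazole is a prodrug that is activated in the acid canaliculus of the gastric parietal cell and there binds the proton pump, the H+/K+ ATPase encoded by Atp4a and Atp4b. It lowers acid secretion by the stomach and so changes what refluxes into the oesophagus. Omeprazole is also known to induce CYP1A enzymes through the aryl hydrocarbon receptor, a ligand-activated transcription factor. The rat oesophagus is lined by a cornified squamous epithelium that lies over a muscular wall of striated fibres. Reflux injury is known to erode this lining and to draw neutrophils, macrophages and lymphocytes into it through chemokines.

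Each value below is a log2 signal relative to the 75th percentile of its own array, so 0 marks that percentile and 1 unit is a doubling. Differences are omeprazole minus untreated with the standard error (SE) of the fit and n = 4 animals a group. They were tested with limma over 13616 genes and called at a Benjamini-Hochberg adjusted p under 0.05. The share of spots well above background was 61.5% on the lowest array and 70.5% on the highest. The tissue label fitted its markers, since the oesophageal keratin Krt13 lay between 5.97 and 8.31 on the sham, untreated and omeprazole arrays and the fast-fibre gene Actn3 between 2.95 and 6.42. The untreated arrays share slide 2 with the low-dose STW5 arrays, and the omeprazole arrays share slide 3 with the high-dose STW5 arrays. Slide and group cannot be told apart in this comparison. In the authors' value table the columns of the STW5 doses are exchanged relative to the scanner files, so every result that names a dose of STW5 follows the labels of the scanner files and could carry the other dose. To limit what the slide could add, 173 genes on which all 8 arrays of slide 3 lay beyond all 12 other arrays were set aside from the genes described, although they stayed in the fit. This leaves 13443 genes, and none of the members of the gene lists described below was among the 173. The array nearest to sham replicate 2 was omeprazole replicate 2, with a correlation across genes of 0.992. Omeprazole replicate 2 was in turn nearer to it than to any omeprazole array (0.991 with replicate 3). Sham replicate 2 correlated with the other sham arrays at 0.964 to 0.974, within the 0.959 to 0.983 of the other sham pairs. Whether either label is wrong was not tested. Values of sham replicate 2 are therefore given apart from those of the other sham arrays.

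Some of the genes described were near background in part of a group, and their differences are then imprecise in size. On the omeprazole arrays, Il10, Cd8b, Ptger4, Mmp3, Gpr65 and Bdkrb1 were well above background on 1 of 4, Gpr84, Pram1, Ptgs2, Oasl, Mpeg1, Thbs1 and Sele on 2 of 4, and Cxcl1, Cxcl2, C3ar1, Camp and Cd8a on 3 of 4. On the untreated arrays this held for Muc15 on 2 of 4 and for Akr1c3 and Mmp3 on 3 of 4.

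The omeprazole and untreated oesophagi differed in 3613 of the 13443 genes outside the slide set, or 26.9%. Of these genes, 1964 were higher with omeprazole (14.6% of those tested) and 1649 were lower (12.3%). The counts of every gene list below are to be read against these shares. At an unadjusted p under 0.05 in limma the shares were 21.9% and 16.9%. The split depended on the scaling. With the 75th percentile 54.4% of the called genes were higher, whereas quantile normalization gave 40% and median scaling 41.2%, and normexp background correction gave 46.3%. The median change over all genes was 0.10 with the 75th percentile and -0.03 with quantile normalization, so changes of this size carry no direction. The counts ranged from 2544 genes without omeprazole replicate 4 to 3961 without untreated replicate 2. No overlap between the 4 omeprazole and the 4 untreated values was seen for 1956 genes that were above (14.6%) and 1700 that were below (12.6%). The falls included chemokines and granule and activation genes of myeloid cells, and the rises included Teddm3, Cyp1a1, Ttc36 and Alb and most of the measured squamous and junction genes.

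Cyp1a1, the classical target of the aryl hydrocarbon receptor, rose from below background to a measurable level. On the untreated arrays its signal was -7.90, -7.89, -8.24 and -7.64, and no array was well above background. On the omeprazole arrays it was -3.89, -2.17, -2.22 and -1.53, well above background on 4 of 4. The groups did not overlap, and the level with omeprazole was at least 10.9-fold higher (adjusted p = 0.00032). Sham replicates 1, 3 and 4 had -6.66, -7.62 and -7.55, close to the untreated arrays, whereas sham replicate 2 had -3.44. With STW5 the signal was -3.61 to -4.62 at the high dose, well above background on 4 of 4 arrays, and -2.60, -2.89, -4.43 and -6.65 at the low dose, well above background on 3 of 4. Within slide 3 the omeprazole arrays were 1.72 ± 0.83 above the high-dose STW5 arrays, a difference that did not pass the test (adjusted p = 0.29).

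Of the 10 genes on the list of aryl hydrocarbon receptor genes 7 were measured, and 4 rose and 2 fell, with a median change of 1.10 against 0.10 for all genes. Ahrr, which encodes the repressor of the receptor and is itself a target, rose by 1.15 ± 0.25 (adjusted p = 0.00374). Nqo1, a quinone reductase, was 0.19, 0.16, -0.51 and -0.16 on the untreated arrays and 1.16, 0.73, 1.05 and 1.13 on the omeprazole arrays. All 4 omeprazole values of Nqo1 lay above all untreated values, and the difference was 1.10 ± 0.28 (adjusted p = 0.00804). The receptor gene Ahr fell by 0.74 ± 0.20 (log2 difference -0.74, adjusted p = 0.0113), and Cyp1b1, another target, had a difference of -1.02 ± 0.36 (adjusted p = 0.042) that was lost without untreated replicates 1, 3 or 4 or without omeprazole replicates 2, 3 or 4. Cyp1a2 was not well above background on any array and was not tested. Among 16 measured genes of drug metabolism and transport, 5 rose and 2 fell, with a median of 0.53. Those that rose included the cytochromes Cyp2b2, by 2.08 ± 0.33 (adjusted p = 0.000401), and Cyp3a9, by 1.51 ± 0.31 (adjusted p = 0.00233), and the carboxylesterase Ces1e, by 2.39 ± 0.60 (adjusted p = 0.00786).

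The promoters of Ahrr and Nqo1 are shown because both genes rose and because the receptor is known to bind the core motif GCGTG. Sequences are the 250 bases before the annotated start, from RefSeq (build GRCr8), 5′ to 3′ on the strand of the gene, with each match of GCGTG on either strand in capitals; on the opposite strand the match reads CACGC.
Ahrr (chr1:30821969-30822218, plus strand): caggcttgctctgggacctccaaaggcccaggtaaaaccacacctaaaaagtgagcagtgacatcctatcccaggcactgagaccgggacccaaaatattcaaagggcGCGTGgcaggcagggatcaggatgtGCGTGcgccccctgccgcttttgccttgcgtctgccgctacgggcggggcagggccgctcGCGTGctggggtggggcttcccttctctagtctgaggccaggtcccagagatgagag
Nqo1 (chr19:52220268-52220517, minus strand): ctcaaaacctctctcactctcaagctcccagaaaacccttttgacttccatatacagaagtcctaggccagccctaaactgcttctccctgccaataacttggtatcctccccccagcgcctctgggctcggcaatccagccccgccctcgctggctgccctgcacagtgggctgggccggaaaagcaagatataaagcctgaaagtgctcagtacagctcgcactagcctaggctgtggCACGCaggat
The Ahrr window held 3 matches and the Nqo1 window 1. The motif is short and common: 27.2% of all 27457 promoters in the table held it, as did 42% of the 10416 promoters of tested genes. The share was 39.7% among genes called higher and 38.9% among genes called lower. On the aryl hydrocarbon receptor list 4 of 5 promoters held the motif. Besides Ahrr and Nqo1 these were Cyp1b1, which was called lower, and Ugt1a6, which was not called.

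Chemokines are secreted proteins that attract leukocytes, and none of those measured rose. Of 26 listed genes 25 were measured, and 13 fell; the median change was -1.46 against 0.10 for all genes. Without untreated replicate 1 the count of falls was 7. Cxcl2, a neutrophil attractant, was 3.65, 2.67, 6.06 and 6.24 on the untreated arrays and -7.11, 0.84, 0.56 and -2.05 on the omeprazole arrays. All omeprazole values lay below all untreated ones, but they spread widely, with replicates 1 and 4 lowest. The difference was -6.59 ± 2.22 (adjusted p = 0.0358), and it lost its call without omeprazole replicates 1 or 4 or without untreated replicates 1, 3 or 4. Cxcl1, a second neutrophil attractant, had -6.40, -1.80, -2.02 and -4.03 with omeprazole and 0.37, -0.37, 2.80 and 2.83 without treatment, again with no overlap. Its difference of -4.97 ± 1.44 (adjusted p = 0.0172) lost its call without omeprazole replicate 1 or untreated replicate 3.

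Other chemokines attract monocytes and eosinophils. Ccl2, which acts on monocytes, was 2.10, 1.26, 5.25 and 3.99 on the untreated arrays and -1.45, -0.21, -0.38 and -1.59 on the omeprazole arrays. The groups did not overlap, and the difference was -4.06 ± 0.78 (adjusted p = 0.00155). Ccl7, a related monocyte attractant, fell by 4.40 ± 0.78 (log2 difference -4.40, adjusted p = 0.000941). Ccl11, also called eotaxin, was 1.81, 2.64, 4.83 and 1.62 without treatment and -3.74, -1.47, -1.63 and -2.39 with omeprazole, a difference of -5.03 ± 0.75 (adjusted p = 0.000271). Ccl4, a chemokine of activated macrophages, was well above background on all untreated arrays and on none of the omeprazole arrays, and its level was at least 13-fold lower with omeprazole (adjusted p = 4.61e-06). Ccl3, a related chemokine, had a difference of -4.92 ± 1.67 (adjusted p = 0.0371) that was lost without untreated replicates 1, 3 or 4 or without omeprazole replicates 1 or 4. The remaining sham arrays lay near the omeprazole arrays for Ccl2, at -1.61, -2.44 and -0.57, with sham replicate 2 at -0.20.

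**Figure D1:**
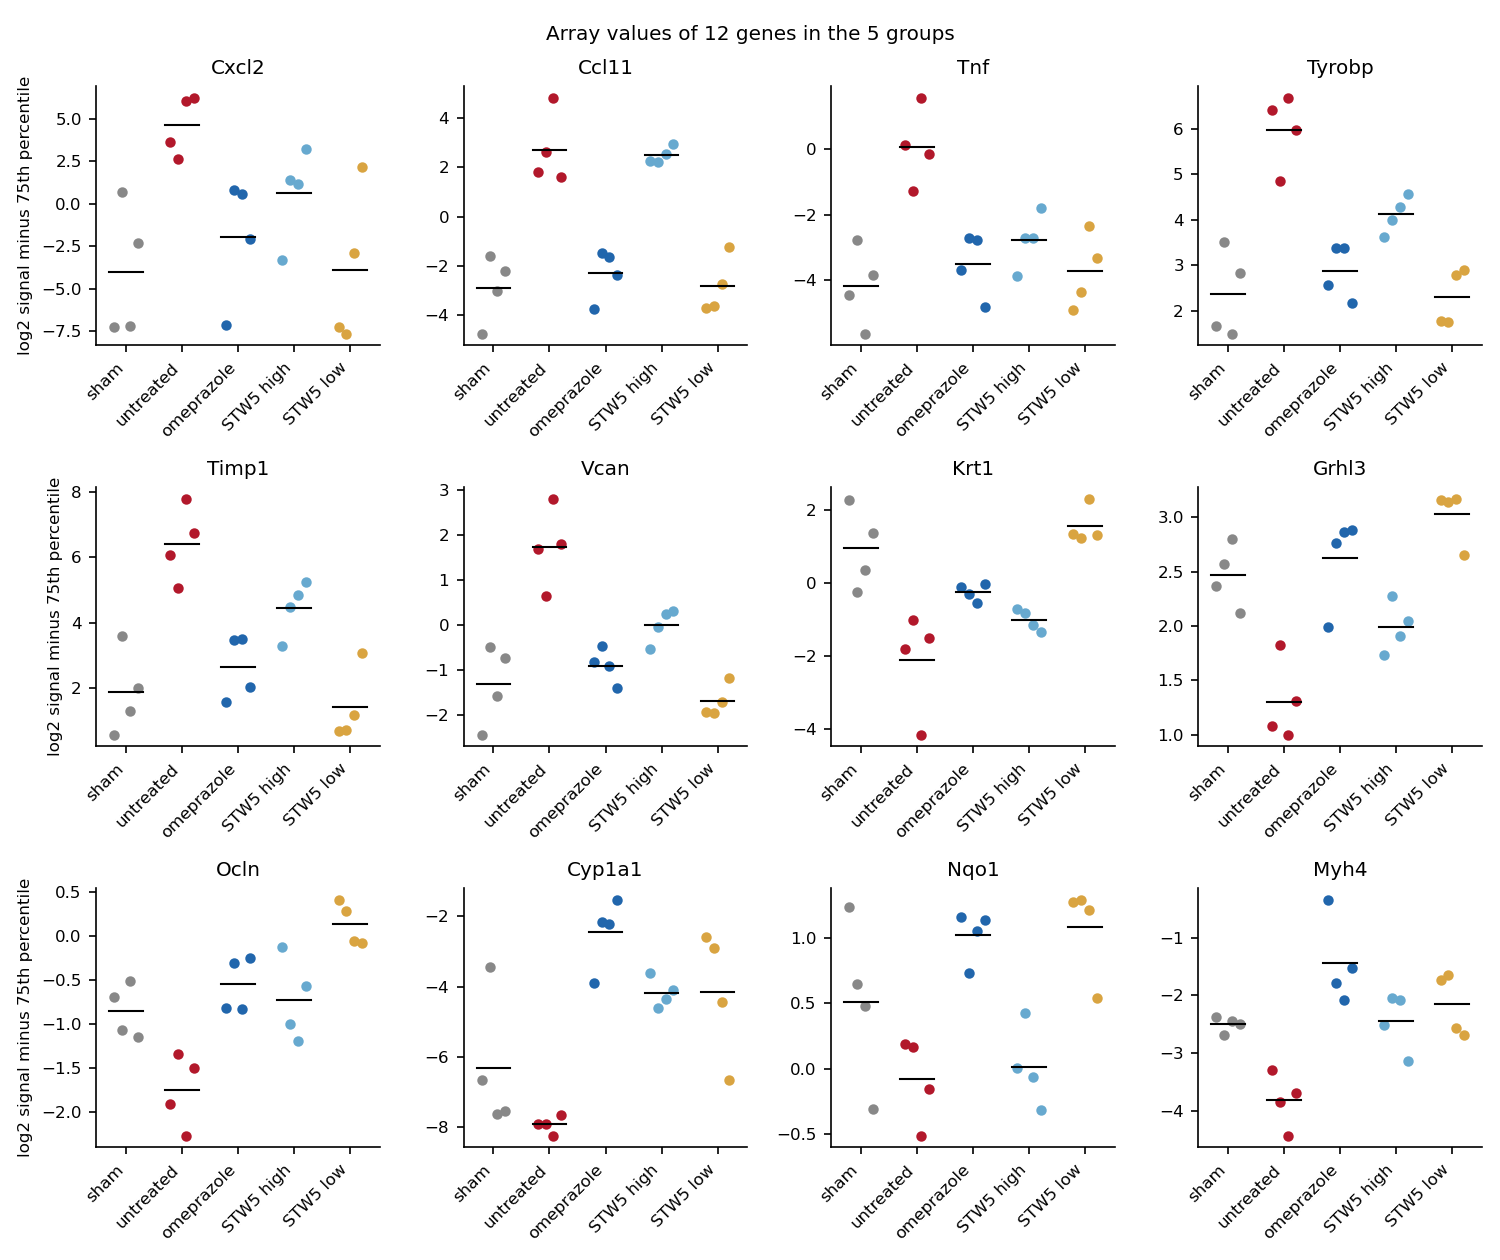
Array values of 12 genes in the 5 groups; the vertical axis is the log2 signal minus the 75th percentile of the array, each point is 1 animal and each line the mean of 4. Omeprazole points lie below all untreated points for Cxcl2, Ccl11, Tnf, Tyrobp, Timp1 and Vcan and above all of them for Krt1, Grhl3, Ocln, Cyp1a1, Nqo1 and Myh4, while Ccl11 with high-dose STW5 lies at the untreated level.

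Of 31 listed cytokines and feedback genes 26 were measured, and 13 fell and 2 rose, with a median of -1.01. Tnf, the inflammatory cytokine tumour necrosis factor, was 0.12, -1.29, 1.56 and -0.14 on the untreated arrays and -3.69, -2.72, -2.76 and -4.82 on the omeprazole arrays. The groups did not overlap, and Tnf differed by -3.57 ± 0.70 (adjusted p = 0.00177). Il10, an anti-inflammatory cytokine measured on 1 omeprazole array, had a fitted difference of -3.46 ± 0.63 (adjusted p = 0.00116), and Il1rn, the antagonist of the interleukin 1 receptor, by -1.39 ± 0.28 (adjusted p = 0.00208). Nfkbia, the inhibitor of NF-kB that is itself induced by NF-kB, was 3.57, 2.92, 4.53 and 4.09 without treatment and 2.00, 2.14, 2.18 and 2.20 with omeprazole. The 4 omeprazole values lay close together and below all untreated ones, and the difference was -1.65 ± 0.26 (adjusted p = 0.000434).

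The cytokine genes best known from oesophagitis were less clear. Il1b was 3.73, 2.30, 3.35 and 4.29 without treatment and -3.60, 1.36, 1.36 and -1.67 with omeprazole. Its groups did not overlap, yet the difference of -4.05 ± 1.62 did not pass the test (adjusted p = 0.0718); with sham replicate 2 left out of the fit the adjusted p was 0.0215. Il6 was well above background on 3 of 4 untreated arrays and on none of the omeprazole arrays, where it was at least 2.84-fold lower (adjusted p = 0.0202). The untreated value of Il6 in replicate 2, -6.79, fell among the omeprazole values of -6.58 to -7.62, and the call was lost without untreated replicates 3 or 4 or omeprazole replicate 1.

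The promoters of Cxcl1, Cxcl2 and Nfkbia are shown because these genes fell and because each holds a match to the NF-kB consensus, the site of the factor through which interleukin 1 and tumour necrosis factor are known to act. The windows are as above, with the bases covered by matches on either strand in capitals.
Cxcl1 (chr14:17479322-17479571, minus strand): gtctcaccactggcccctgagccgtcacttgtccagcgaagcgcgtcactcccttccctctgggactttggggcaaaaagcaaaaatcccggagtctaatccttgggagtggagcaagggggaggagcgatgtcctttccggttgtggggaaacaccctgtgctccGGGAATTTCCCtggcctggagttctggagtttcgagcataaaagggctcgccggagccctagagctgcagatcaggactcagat
Cxcl2 (chr14:17467256-17467505, minus strand): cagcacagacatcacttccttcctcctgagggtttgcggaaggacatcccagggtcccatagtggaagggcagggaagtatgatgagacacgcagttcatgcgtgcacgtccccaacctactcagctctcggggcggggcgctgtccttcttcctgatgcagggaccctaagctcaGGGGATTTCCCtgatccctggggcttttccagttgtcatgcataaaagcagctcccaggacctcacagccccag
Nfkbia (chr6:78597073-78597322, minus strand): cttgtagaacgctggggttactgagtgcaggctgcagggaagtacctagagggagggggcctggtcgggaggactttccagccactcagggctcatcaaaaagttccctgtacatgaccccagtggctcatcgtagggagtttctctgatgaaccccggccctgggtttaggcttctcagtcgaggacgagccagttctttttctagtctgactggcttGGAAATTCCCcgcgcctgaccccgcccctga
Over all genes with a promoter in the table, 6.41% of 27457 windows and 8.21% of the windows of tested genes held the consensus. Among genes called lower the share was 11.7% of 1257, and among genes called higher it was 7.59% of 1541. On the chemokine list 6 of 19 promoters held it and on the cytokine list 6 of 18. Of these genes Ccl7, Cxcl1, Cxcl2, Il6, Nfkbia and Socs3 were called lower. Ccl20, Cxcl6, Cxcl10, Il36a, Socs1 and Tslp held it too and were not called. A grainyhead-like motif, AACCNGTT, the binding site of the factors that Grhl1 and Grhl3 encode, was in 1.43% of the promoters of tested genes, in 2.14% of genes called higher and in 2 of 21 squamous promoters. These are descriptions of letters in a window and do not show binding.

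Markers of macrophages and monocytes fell nearly throughout. Of 26 listed markers 25 were measured, and 23 fell and none rose, with a median of -2.60. Tyrobp, an adaptor of myeloid receptors, was 6.42, 4.84, 6.68 and 5.97 on the untreated arrays and 2.56, 3.39, 3.38 and 2.17 on the omeprazole arrays. The groups did not overlap, and Tyrobp differed by -3.11 ± 0.47 (adjusted p = 0.000298). Falls of similar size were seen for Mpeg1, the macrophage perforin (-3.49 ± 0.49, adjusted p = 0.000173), and for the mannose receptor Mrc1 (-2.43 ± 0.35, adjusted p = 0.000229), and Itgam, the CD11b integrin chain, fell by 2.33 ± 0.36 (log2 difference -2.33, adjusted p = 0.000332). The mean of the list, centred for each gene on all 20 arrays, ranged from -0.86 to -0.08 on the omeprazole arrays and from 1.34 to 2.70 on the untreated arrays.

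Of 20 neutrophil markers 16 were measured, and 8 fell and 1 rose, with a median of -3.43. Retnlg was 2.44, 2.45, 3.03 and 1.99 without treatment and -4.52, -0.87, -1.16 and -3.11 with omeprazole, a difference of -4.89 ± 1.02 (adjusted p = 0.00268). No value overlapped, and replicates 1 and 4 were again the lowest of the omeprazole group. Fcnb, a ficolin of neutrophil granules, differed by -5.03 ± 0.99 (adjusted p = 0.00183), and Camp, the cathelicidin, by -4.13 ± 0.86 (adjusted p = 0.00272). Mmp8, the neutrophil collagenase, was well above background on no omeprazole array and was at least 5.06-fold lower (adjusted p = 0.00334). The list mean was -1.75, 0.76, 0.87 and -0.92 on omeprazole replicates 1 to 4 and 1.17 to 3.74 on the untreated arrays.

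**Figure D2:**
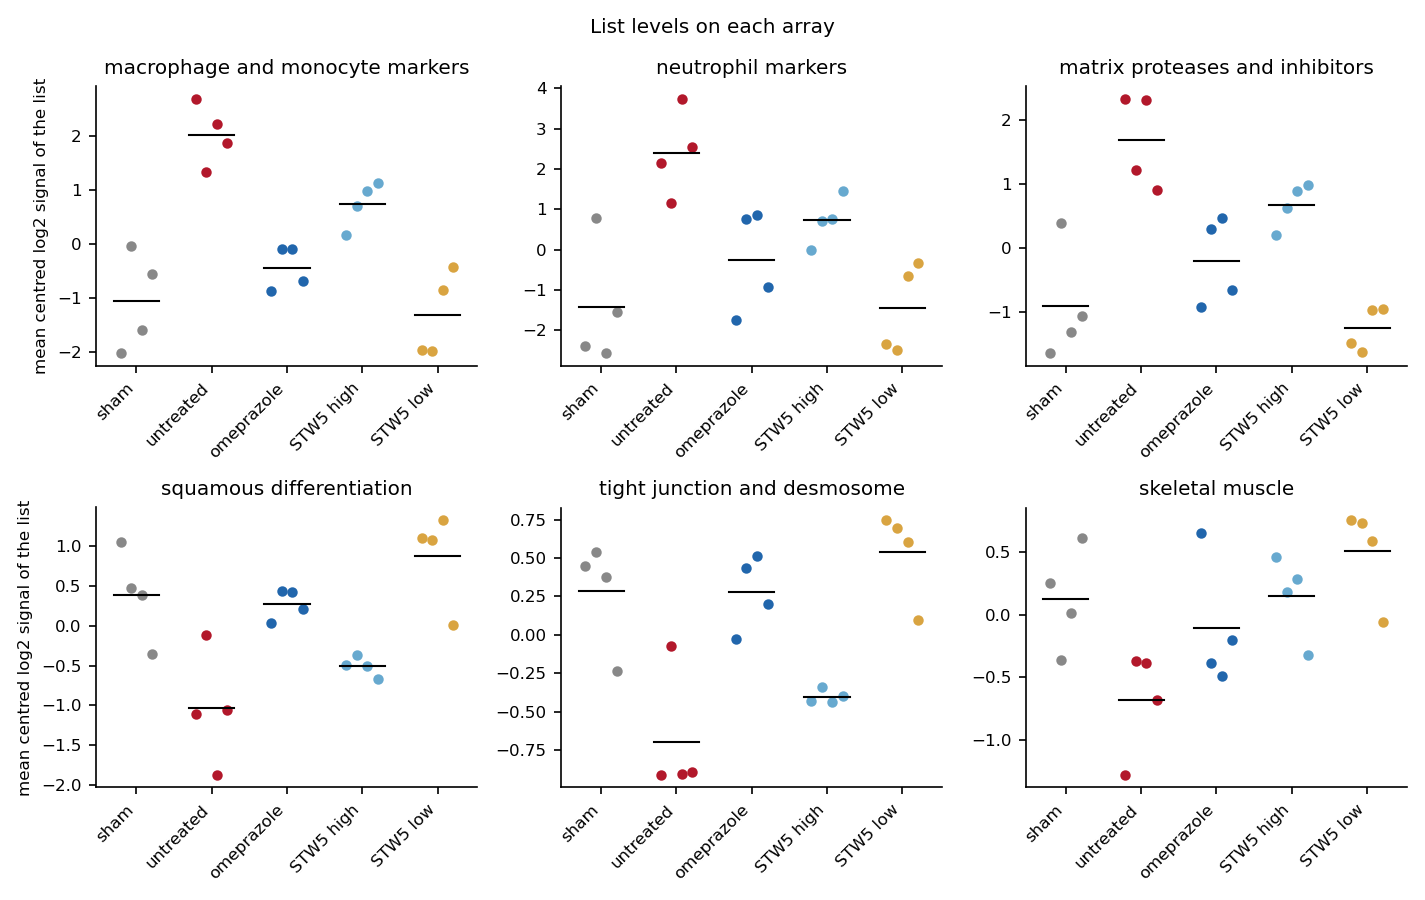
Mean centred log2 signal of 6 gene lists on each array; each point is 1 animal and each line the mean of 4, with every gene centred on its mean over all 20 arrays. Macrophage, neutrophil and matrix protease lists are lower on all omeprazole arrays than on all untreated arrays; the squamous and junction lists are higher on every omeprazole array, and the skeletal muscle list overlaps between the groups.

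Lymphocyte, mast cell and eosinophil markers moved in fewer members. Of 15 measured T and NK cell markers 4 fell and none rose, with a median of -1.09; the chains of the CD8 co-receptor Cd8a (-2.08 ± 0.62, adjusted p = 0.0202) and Cd8b (fitted -1.97 ± 0.46, adjusted p = 0.00569, measured on 1 omeprazole array) were among them, and the call of Cd8a was lost without untreated replicate 1 or omeprazole replicate 4. The T and NK cell list mean was highest on untreated replicate 1, at 2.64, against 0.32 to 1.04 on the other untreated arrays and -0.58 to 0.46 on the omeprazole arrays. Of 13 mast cell and eosinophil markers 3 fell, among them the tryptase Tpsab1, by 2.18 ± 0.60 (log2 difference -2.18, adjusted p = 0.0126). The eotaxin receptor Ccr3 was well above background on 3 untreated arrays and on no omeprazole array, and was at least 1.42-fold lower (adjusted p = 0.00531). Of the 11 B and plasma cell markers only 3 were measured. Among these Tnfrsf17, the BCMA receptor of plasma cells, rose by 1.64 ± 0.48 (adjusted p = 0.018), a call lost without omeprazole replicate 4 at an adjusted p of 0.0501. The other 2 measured markers had negative differences, the lowest -1.48, and were not called. The median of the 3 was -0.04.

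Complement and acute phase genes fell in part. Of 21 measured complement and acute phase genes 11 fell and none rose, with a median of -1.62. Hp, the haemoglobin-binding protein haptoglobin, was 2.12, -0.09, 4.27 and 2.53 without treatment and -2.98, -2.12, -2.19 and -3.06 with omeprazole, a difference of -4.79 ± 0.82 (adjusted p = 0.000699). A2m, the protease inhibitor alpha-2-macroglobulin, differed by -3.24 ± 0.53 (adjusted p = 0.000523), and the anaphylatoxin receptors C3ar1 and C5ar1 by -3.04 ± 0.53 (adjusted p = 0.000794) and -2.91 ± 0.54 (adjusted p = 0.00123). Lcn2, the siderophore-binding lipocalin of neutrophils and injured epithelium, was 3.93, 2.38, 4.79 and 5.03 without treatment and -2.07, 0.09, 0.03 and -1.43 with omeprazole, a difference of -4.88 ± 1.11 (adjusted p = 0.00468). All 5 of these genes had no overlap between the groups, but they were chosen by smallest p or as largest falls without overlap. Outside the slide set 12.6% of all genes lay below without overlap.

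Antigen presentation and interferon genes also fell in part. Of 14 measured antigen presentation genes 9 fell and none rose, with a median of -1.13; RT1-DMb, an MHC class II peptide exchange chain, fell by 2.39 ± 0.37 (log2 difference -2.39, adjusted p = 0.000332), and the protease Ctss by 2.64 ± 0.52 (log2 difference -2.64, adjusted p = 0.00185). Of 20 interferon response genes 8 fell and none rose, with a median of -1.07. Mx1, an antiviral GTPase, was 1.29, -0.58, -0.63 and -0.96 on the untreated arrays and -2.11, -1.75, -2.13 and -2.35 on the omeprazole arrays (difference -1.86 ± 0.43, adjusted p = 0.00485). The untreated replicate 1 was the highest for Mx1 and also for Irf1, a transcription factor of the interferon response, at 3.12 against 1.49 to 1.76. Oasl differed by -2.44 ± 0.48 (adjusted p = 0.00176).

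Eicosanoid genes changed in both directions. Of 21 measured 4 rose and 5 fell. The 4 that rose, named after their values were seen, were the prostaglandin D synthase Ptgds (1.43 ± 0.50, adjusted p = 0.0415), the prostaglandin-degrading enzyme Hpgd (1.39 ± 0.43, adjusted p = 0.025), the lipoxygenase Alox12 (1.82 ± 0.46, adjusted p = 0.00876) and the prostaglandin E2 receptor Ptger3 (1.30 ± 0.41, adjusted p = 0.0266). The prostaglandin E2 receptor Ptger2 was well above background on all untreated arrays and no omeprazole array, and was at least 5.21-fold lower (adjusted p = 2.47e-05). Ptger4, another receptor of prostaglandin E2 and measured on 1 omeprazole array, had a fitted difference of -1.54 ± 0.36 (adjusted p = 0.00586). The prostaglandin E synthase Ptges differed by -1.78 ± 0.42 (adjusted p = 0.00568) and the thromboxane synthase Tbxas1 by -2.12 ± 0.35 (adjusted p = 0.000521). Ptgs2, the inducible cyclooxygenase, was -2.33, -2.87, -1.68 and -1.18 without treatment and -6.81, -3.03, -3.28 and -5.58 with omeprazole. Its groups did not overlap but nearly touched, and the difference of -2.66 ± 1.08 did not pass the test (adjusted p = 0.0765; 0.0459 with sham replicate 2 left out of the fit). Bdkrb1, the bradykinin receptor that injury induces, was -3.73, -4.32, -3.87 and -3.93 without treatment and -5.95, -6.21, -5.71 and -6.93 with omeprazole, where it was well above background on 1 of 4. The fitted difference of -2.24 ± 0.27 (adjusted p = 3.3e-05) therefore partly rests on signals near background, and no untreated value overlapped the omeprazole values.

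Part of the matrix genes fell. Of 22 measured matrix proteases and inhibitors 12 fell and none rose, with a median of -1.69. Timp1, the metalloproteinase inhibitor, was 6.06, 5.08, 7.79 and 6.75 on the untreated arrays and 1.57, 3.46, 3.50 and 2.02 on the omeprazole arrays. The groups did not overlap, and Timp1 differed by -3.78 ± 0.72 (adjusted p = 0.00151). Mmp3, or stromelysin, was measured on 1 omeprazole array and had a fitted difference of -3.59 ± 0.66 (adjusted p = 0.00117) with overlapping groups. Adamts1, a proteoglycan-cleaving protease, differed by -2.26 ± 0.47 (adjusted p = 0.00258), and its relative Adamts4 was at least 2.63-fold lower (adjusted p = 0.000664). Of 28 fibrillar matrix genes 8 fell and none rose, with a median of -0.78. The collagens Col1a1 (-0.55), Col1a2 (-0.22) and Col3a1 (-0.43) did not pass the test and overlapped between the groups. Vcan, the proteoglycan versican, differed by -2.63 ± 0.43 (adjusted p = 0.000505), the adhesive glycoprotein Thbs1 by -3.19 ± 0.56 (adjusted p = 0.000828), and the collagen crosslinking enzymes Lox and Plod2 by -2.07 ± 0.45 (adjusted p = 0.00352) and -1.72 ± 0.25 (adjusted p = 0.000184).

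Of 19 measured endothelial and vessel growth genes 9 fell and none rose, with a median of -0.75. Leukocyte adhesion molecules were among them. Icam1 was 2.12, 1.13, 2.34 and 1.07 without treatment and -0.30, -0.22, -0.28 and -0.61 with omeprazole, a difference of -2.01 ± 0.32 (adjusted p = 0.000426) with no overlap. Vcam1 differed by -1.75 ± 0.43 (adjusted p = 0.00717), the selectin Sele by -2.14 ± 0.50 (adjusted p = 0.00523), and Flt1, a receptor of vascular endothelial growth factor, by -1.90 ± 0.37 (adjusted p = 0.00177).

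Most measured genes of squamous differentiation rose with omeprazole. Of 34 listed genes 26 were measured, and 19 rose and none fell; the median change was 1.40 against 0.10 for all genes. Without untreated replicate 3, which had the lowest list mean of all arrays at -1.87, the count of rises was 11. Krt1, a keratin of cornifying layers, was -1.83, -1.01, -4.16 and -1.51 on the untreated arrays and -0.11, -0.32, -0.57 and -0.03 on the omeprazole arrays. The groups did not overlap, and Krt1 differed by 1.87 ± 0.57 (adjusted p = 0.0225), a call lost without untreated replicate 3 or omeprazole replicate 4. Krt13, the main suprabasal keratin of the oesophagus, was 7.19, 7.67, 5.97 and 6.91 without treatment and 7.94, 7.74, 7.86 and 7.83 with omeprazole, and its difference of 0.91 ± 0.31 (adjusted p = 0.0401) was lost when any of the 4 omeprazole arrays or untreated replicates 3 or 4 was left out.

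Transcription factors of the squamous programme were among those that rose. Grhl3, which drives cornification, was 1.08, 1.83, 1.00 and 1.31 without treatment and 1.99, 2.77, 2.86 and 2.88 with omeprazole, a difference of 1.32 ± 0.23 (adjusted p = 0.00085). All 4 omeprazole values were above the untreated ones, with omeprazole replicate 1 the lowest. Its relative Grhl1 rose by 1.56 ± 0.36 (adjusted p = 0.00546). Elovl4, which elongates the very long fatty acids of the barrier, rose by 1.81 ± 0.34 (adjusted p = 0.00132), and Casp14, the protease of cornification, by 2.01 ± 0.47 (adjusted p = 0.00514). The other sham arrays, 1, 3 and 4, had Grhl3 at 2.37, 2.80 and 2.12, and sham replicate 2 had 2.57.

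Of 23 measured tight junction and desmosome genes 15 rose and none fell, with a median of 0.97; with only the 8 omeprazole and untreated arrays in the fit 8 rose. Ocln, which encodes occludin, was -1.91, -1.34, -2.27 and -1.50 without treatment and -0.82, -0.31, -0.84 and -0.25 with omeprazole, a difference of 1.20 ± 0.25 (adjusted p = 0.00294) with no overlap. The claudin genes differed among themselves. Cldn3 rose by 2.01 ± 0.51 (adjusted p = 0.00851) and Cldn23 by 1.53 ± 0.31 (adjusted p = 0.00241), whereas Cldn1 had 0.38 ± 0.39 and did not pass the test (adjusted p = 0.488). Marveld2, a protein of tricellular junctions, rose by 1.07 ± 0.24 (adjusted p = 0.0038).

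Of 19 measured basal and wound-edge keratinocyte genes 5 were called higher and none lower, with a median of 0.65. Differences were above 0 for 15 of them and below 0 for 4, the lowest at -3.34, which was not called. The hemidesmosomal collagen Col17a1 was 1.36, 2.26, 1.52 and 1.53 without treatment and 2.37, 3.09, 3.08 and 3.09 with omeprazole (difference 1.24 ± 0.27, adjusted p = 0.0037). The transcription factors of oesophageal epithelium Sox2 and Pax9 rose by 1.11 ± 0.30 (adjusted p = 0.0129) and 1.17 ± 0.30 (adjusted p = 0.00834), and the stem and basal keratin Krt15 by 1.03 ± 0.28 (adjusted p = 0.0134). On this list the mean ranged from -0.94 to 1.37 on the omeprazole arrays and from -0.73 to 0.84 on the untreated arrays, and the groups overlapped. None of 24 measured cell cycle genes was called by limma, and the proliferation marker Top2a had 0.83 ± 0.34 (adjusted p = 0.0791); with only the omeprazole and untreated arrays in the fit Top2a had an adjusted p of 0.0283. Mki67 was not measured.

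**Figure D3:**
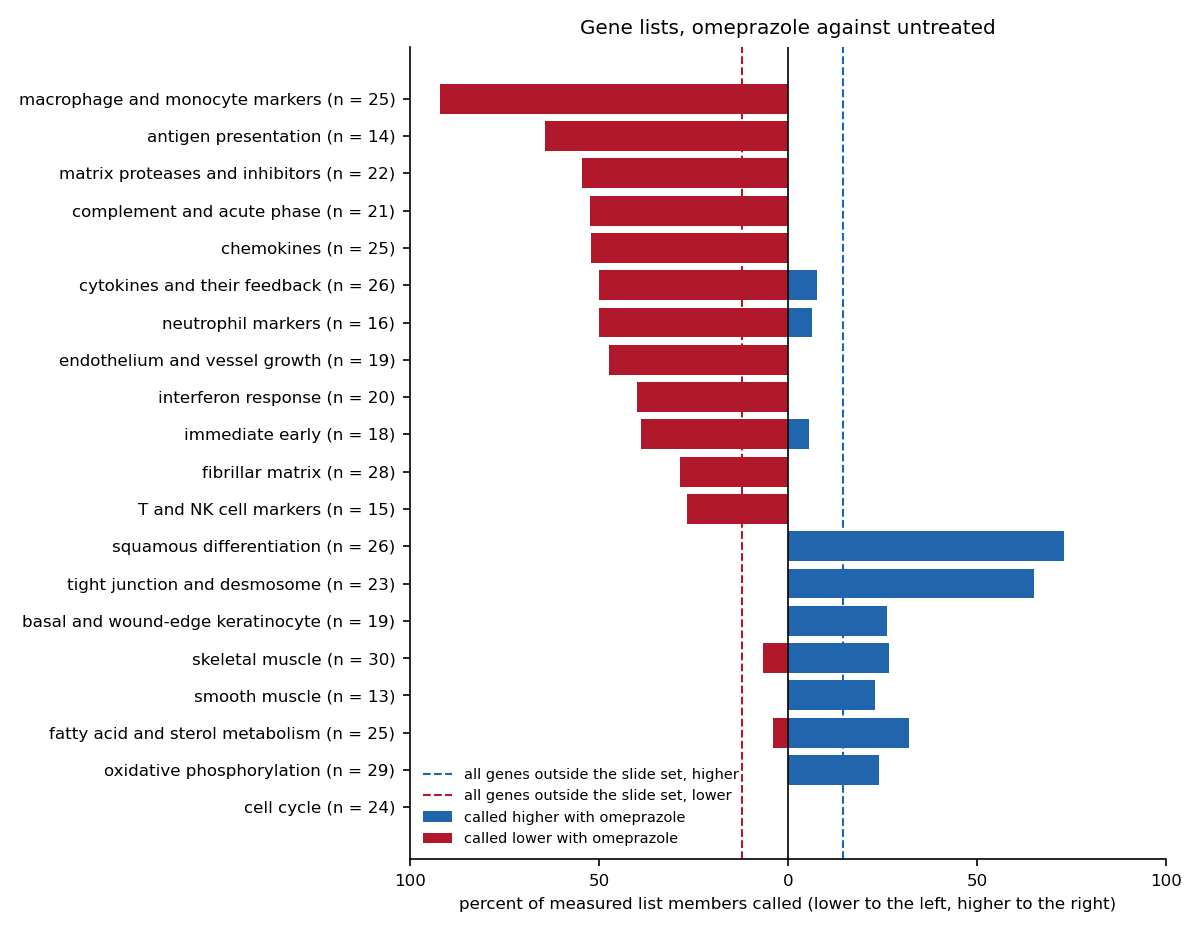
Percent of measured members of 20 gene lists called lower (left) or higher (right) with omeprazole; dashed lines mark 12.3% and 14.6%, the shares of all genes outside the slide set. Macrophage markers reach furthest to the left with 23 of 25 members, squamous differentiation furthest to the right with 19 of 26, and no cell cycle gene is called.

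The target of omeprazole itself was not detected at a level that could be compared. Atp4a was well above background on 1 untreated and 3 omeprazole arrays, with a difference of 0.47 ± 0.33 (adjusted p = 0.302) that was -0.03 with normexp background correction, and Atp4b passed the filter on too few arrays to be tested. Of 22 measured acid and bicarbonate transport genes 4 rose and 4 fell, with a median of 0.06, shares near the 14.6% and 12.3% of all genes. The proton-sensing receptor Gpr65 of leukocytes, measured on 1 omeprazole array, had a fitted difference of -2.37 ± 0.47 (adjusted p = 0.00205), and the sodium-proton exchanger Slc9a2 rose by 1.28 ± 0.36 (adjusted p = 0.0153), a call lost at adjusted p of 0.0501 and 0.0503 without untreated replicate 1 or omeprazole replicate 1. Among 22 genes of the V-ATPase and lysosome 2 rose and 6 fell, and 3 fell without untreated replicates 1 or 3 or omeprazole replicate 1. The lysosomal proteases Ctsb and Ctsl fell by 1.18 ± 0.17 (log2 difference -1.18, adjusted p = 0.000256) and 1.19 ± 0.22 (log2 difference -1.19, adjusted p = 0.00117), and the V-ATPase subunit Atp6v1e1 rose by 0.83 ± 0.22 (adjusted p = 0.0115).

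Gastric mucosa genes were listed as markers of the neighbouring tissue. Of 18 gastric mucosa markers 8 were measured, and 2 rose. Muc6, a gland mucin, was -3.14, -2.71, -3.19 and -2.88 without treatment and -2.17, -1.86, -1.89 and -2.14 with omeprazole (difference 0.96 ± 0.19, adjusted p = 0.00164). Gast, which encodes the gastric hormone gastrin, rose by 0.71 ± 0.18 (adjusted p = 0.00877), a call lost with quantile normalization and with normexp background correction. The gastric list mean overlapped between the groups, from -1.25 to 0.55 with omeprazole and from -0.88 to 1.20 without treatment, and it was highest on sham replicate 4 at 3.02. Muc15, a membrane mucin, rose by 2.25 ± 0.40 (adjusted p = 0.000956). None of 8 adipocyte and 6 erythroid markers was called, although the adipocyte mean spread from -0.08 to 2.34 over the omeprazole arrays. The part of these other cell types in the results was not tested.

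Some muscle genes rose and others fell. Of 30 measured skeletal muscle genes 8 rose and 2 fell; the count of rises was 5 without untreated replicate 1 or omeprazole replicate 4. Myh4, the fastest myosin heavy chain, was -3.29, -3.85, -4.43 and -3.69 without treatment and -0.34, -1.78, -2.08 and -1.53 with omeprazole, a difference of 2.38 ± 0.35 (adjusted p = 0.000238). Actn3, the actinin of fast fibres, rose by 1.75 ± 0.37 (adjusted p = 0.0028). The 2 that fell encode troponins of slow fibres: Tnnc1 was 2.09, 3.08, 4.40 and 3.83 without treatment and 1.42, 0.54, 0.39 and 0.81 with omeprazole, a difference of -2.56 ± 0.51 (adjusted p = 0.00196), and Tnnt1 fell by 2.04 ± 0.52 (log2 difference -2.04, adjusted p = 0.00888). Tnnt1 was chosen after its values were seen. Values of these 4 genes, chosen by small p or after their values were seen, did not overlap between the groups. Other fibre-type members, also named after their values were seen, did not pass the test: among slow-fibre genes Myh7 had -0.77, Tnni1 -0.39, Myl2 0.38 and Myl3 0.69, and among fast-fibre genes Tnnt3 had 0.46, Tnni2 0.27, Tnnc2 0.39 and Myh1 1.20.

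Among 19 genes of muscle stress and regeneration 5 fell and none rose, a count of 3 without omeprazole replicate 4. The stretch-response genes Ankrd2 and Ankrd1 differed by -4.39 ± 1.06 (adjusted p = 0.00659) and -4.06 ± 1.00 (adjusted p = 0.00734), Myog, a transcription factor of muscle differentiation, by -1.29 ± 0.32 (adjusted p = 0.00741) and Chrnd, a subunit of the muscle acetylcholine receptor, by -1.30 ± 0.37 (adjusted p = 0.0161), a call lost without untreated replicate 1 or omeprazole replicate 4. Mss51, a gene of muscle mitochondria, had one of the largest rises, from -4.33, -2.57, -3.84 and -2.11 to -0.24, -0.14, -0.25 and 0.31 (difference 3.14 ± 0.44, adjusted p = 0.000151). Of 13 measured smooth muscle genes 3 rose, among them the myosin Myh11, by 1.61 ± 0.41 (adjusted p = 0.00851), and the leiomodin Lmod1, by 1.99 ± 0.51 (adjusted p = 0.00895). Of 29 oxidative phosphorylation genes 7 rose and none fell, with a median of 0.39; 2 rose with median scaling and 11 with normexp background correction, and 3 rose without untreated replicate 1 or without omeprazole replicates 1 or 4. Sdhc, a subunit of complex II, rose by 1.02 ± 0.19 (adjusted p = 0.00151), and Ndufs1 of complex I by 0.85 ± 0.19 (adjusted p = 0.00389).

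Of 18 measured Nrf2 and antioxidant genes 3 rose and 4 fell, against 14.6% and 12.3% of all genes. Hmox1, haem oxygenase, was 3.01, 1.39, 3.26 and 3.12 without treatment and 0.98, 0.45, 0.60 and 0.55 with omeprazole, a difference of -2.05 ± 0.45 (adjusted p = 0.0035). The mitochondrial superoxide dismutase Sod2 and the glutathione reductase Gsr fell by 1.69 ± 0.29 (log2 difference -1.69, adjusted p = 0.000699) and 1.19 ± 0.23 (log2 difference -1.19, adjusted p = 0.00168), while catalase, Cat, rose by 1.03 ± 0.21 (adjusted p = 0.00236). Of 18 immediate early genes 7 fell and 1 rose; with only the omeprazole and untreated arrays in the fit 2 fell, and without untreated replicate 3 the number was 3. Fos fell by 2.10 ± 0.52 (log2 difference -2.10, adjusted p = 0.0078) and Klf4, which also acts in squamous differentiation, rose by 0.89 ± 0.23 (adjusted p = 0.00853).

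Among 25 fatty acid and sterol genes 8 rose and 1 fell, a count of 5 rises without untreated replicate 3. The 1 that fell was Angptl4, an inhibitor of lipoprotein lipase, with values of 1.97 to 3.43 without treatment and of -1.29 to 0.20 with omeprazole (difference -3.33 ± 0.54, adjusted p = 0.000505). The lipogenic transcription factor Srebf1 rose by 1.34 ± 0.18 (adjusted p = 0.0001), with all 4 omeprazole values between 0.93 and 1.04. Of 22 hypoxia and glycolysis genes 5 rose and 6 fell; without untreated replicate 3 they were 2 and 3. Hk1, a hexokinase, rose by 1.19 ± 0.16 (adjusted p = 0.000103), and Hif1a, the hypoxia-inducible factor, fell by 1.59 ± 0.38 (log2 difference -1.59, adjusted p = 0.00643).

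The remaining genes of the largest changes had mixed or little-known roles. Teddm3 had the largest fitted rise, from 3.79, 0.35, -2.35 and -3.74 to 6.03, 6.41, 6.35 and 6.42 (difference 6.79 ± 1.60, adjusted p = 0.00569), and its untreated values spread far more than its omeprazole values. Alb, which encodes albumin, rose by 3.31 ± 0.80 (adjusted p = 0.00655), and it was well above background on 1 untreated array. Ttc36 rose by 4.00 ± 0.68 (adjusted p = 0.000699), the dopamine receptor Drd5 by 2.96 ± 0.46 (adjusted p = 0.00035), the incretin receptor Gipr by 2.74 ± 0.44 (adjusted p = 0.000464) and the aldo-keto reductase Akr1c3 by 2.65 ± 0.63 (adjusted p = 0.00604). Cobl, Syndig1l, Reep5 and 1700009N14Rikl were well above background on all omeprazole arrays and no untreated array, and were at least 2.76-fold, 3.06-fold, 4.54-fold and 2.67-fold higher. The adjusted p of these 4 was at most 0.00101, and Cobl lost its call with normexp background correction. Among the falls Cd300c2, a myeloid receptor, and Acod1, the itaconate-forming enzyme of activated macrophages, were well above background on no omeprazole array, and were at least 16.3-fold (adjusted p = 0.000611) and 10.4-fold (adjusted p = 0.000341) lower. Gpr84, a fatty acid receptor of myeloid cells, differed by -4.86 ± 0.78 (adjusted p = 0.000446) and Pram1, an adaptor of granulocytes, by -4.85 ± 0.97 (adjusted p = 0.00201).

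The high-dose STW5 arrays lie on the same slide as the omeprazole arrays and allowed a comparison of drug groups that slide does not enter. Here 30 of 13616 genes differed, or 0.22%, with 26 lower (0.191%) and 4 higher (0.0294%) on the omeprazole arrays. The number rests on the spread that the fit pools over 5 groups: with only these 8 arrays in the fit 1183 genes were called, and it fell to between 5 and 22 when single arrays were left out. No squamous, junction, macrophage or cytokine member was called, with medians of 0.75, 0.64, -1.25 and -0.19 against 0.07 for all genes. A p that misses the threshold does not show that the drug groups are alike.

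**Figure D4:**
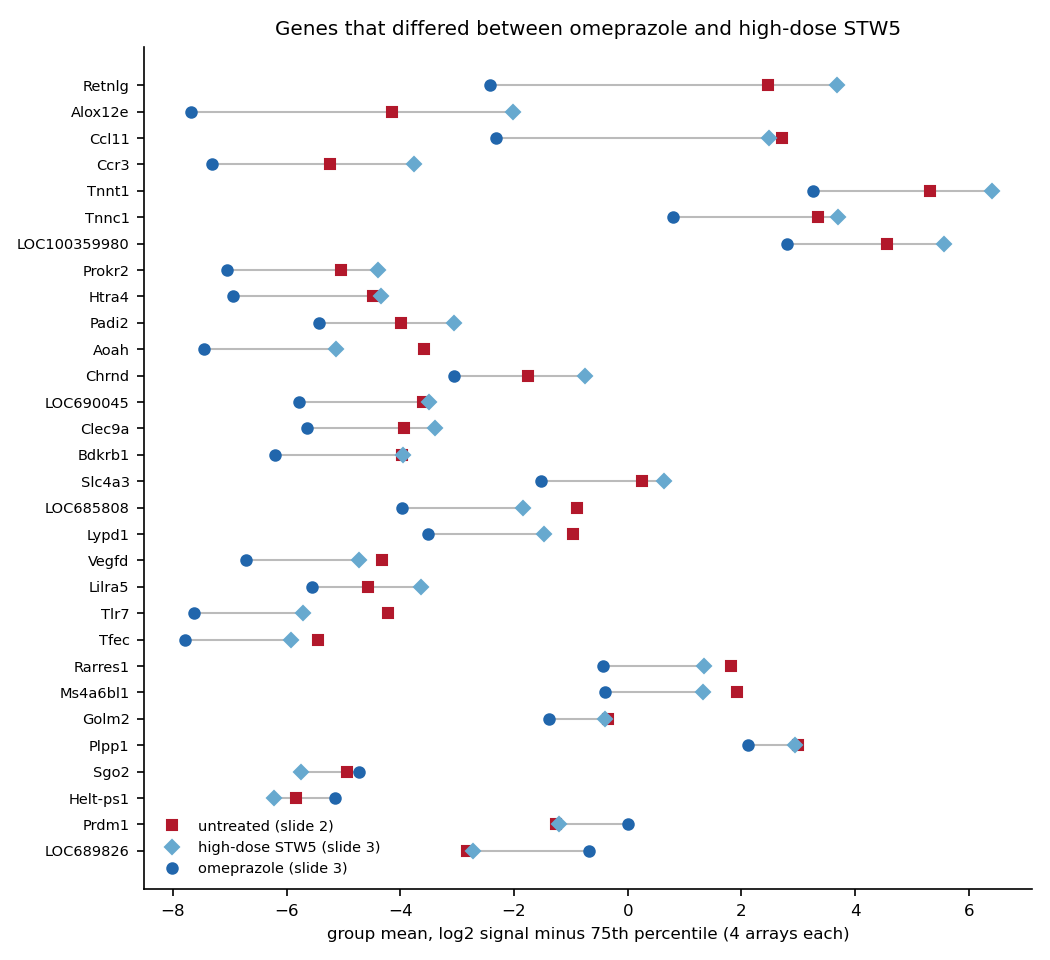
Group means of the 30 genes that differed between omeprazole and high-dose STW5, as log2 signal minus the 75th percentile, with 4 arrays a mean; grey lines join the 2 groups of slide 3. The omeprazole mean is the lowest of the 3 for the 26 genes from Retnlg to Plpp1 and the highest of the 3 for the last 4.

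Of the lists, 1 of 13 mast cell and eosinophil markers, 1 of 16 neutrophil markers and 1 of 25 chemokines were called lower here. So were 2 of 30 skeletal muscle genes, 1 of 19 muscle stress genes and 1 of 15 pain, bradykinin and neuropeptide genes. Most of the 30 genes belong to no list. Ccl11 was 2.26, 2.21, 2.53 and 2.95 on the high-dose STW5 arrays, near the untreated level, and -4.79 ± 0.75 lower on the omeprazole arrays (adjusted p = 0.0145). Retnlg differed by -6.10 ± 1.02 (adjusted p = 0.0192), Tnnc1 by -2.91 ± 0.51 (adjusted p = 0.0214), and Chrnd by -2.29 ± 0.37 (adjusted p = 0.0171). Bdkrb1, well above background on 4 high-dose arrays and 1 omeprazole array, had a fitted difference of -2.24 ± 0.27 (adjusted p = 0.00152). The receptor Ccr3 was at least 3.96-fold lower on the omeprazole arrays than on the high-dose arrays (adjusted p = 0.00407). Further genes, chosen after their values were seen, were the lipoxygenase Alox12e, at least 13.2-fold lower (adjusted p = 7.8e-05), the peptidylarginine deiminase Padi2 (-2.37 ± 0.31, adjusted p = 0.00307) and the transcription factor Prdm1 (1.22 ± 0.24, adjusted p = 0.0443). The 30 genes did not overlap between the drug groups, which largely follows from their choice by adjusted p on these same arrays. This comparison shares its omeprazole arrays with the one against untreated rats.

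Within slide 2, the low-dose STW5 arrays differed from the untreated arrays, which this comparison shares, in 5119 genes (37.6%), and the high-dose arrays of slide 3 differed from them in 1291 (9.48%). For genes described above, low-dose STW5 minus untreated was -7.39 for Cxcl2, -4.44 for Ccl2, -3.49 for Tyrobp, -4.76 for Timp1, 3.75 for Krt1 and 1.82 for Ocln. The values of omeprazole minus untreated for these genes were -6.59, -4.06, -3.11, -3.78, 1.87 and 1.20.

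Against sham surgery 81 genes outside the slide set differed on the omeprazole arrays, 79 of them higher. Over all genes the number was 215, of which 134 were in the slide set, and it was 332 with sham replicate 2 left out of the fit, with 48 lower in place of 2. The slide set held 160 genes that were higher on slide 3, with a median change of 1.75 for omeprazole and 1.65 for high-dose STW5 against untreated, and 13 that were lower. Since the rule for this set reads the omeprazole values, these figures are descriptive. At its edge, Ms4a15 (0.71) and Coa3 (0.75) lay just inside with gaps of 0.01 between the slides, and Yap1 (0.91) and Smc4 (1.07) lay just outside with overlaps of the same size.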

How the data were processed

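Cy3-labelled cRNA of oesophageal tissue was hybridised to 1-colour Agilent rat arrays, 20 in all. Scanner files with a processed intensity per feature were deposited by the authors; per the file headers the intensities were made with Agilent Feature Extraction 10.7.3.1, which subtracts background and does not scale between arrays. The authors also deposited a value table, in which each value is the ratio of an array's signal to its own median. Its 8 STW5 columns matched the scanner files of the other dose, whereas the omeprazole, untreated and sham columns matched their own.

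From these files the log2 processed signal of 58717 non-control features was taken minus the 75th percentile of each array, spots of a probe were averaged, and probes well above background on at least 4 arrays were kept. Genes were named through RefSeq tables (18382 probes by accession, 2481 by symbol, 526 by synonym) or by the array file (1831), 7136 probes were unnamed, and a gene was represented by 1 probe. All 5 groups were fitted together with limma 3.58.1 in R 4.3.3, with Benjamini-Hochberg adjustment over 13616 genes. Low-dose STW5 replicates 1 and 2 differed by less than the spread of any other pair and were counted as 1 sample, which leaves 19. Separate animals are stated for the arrays of a group; their number limits the precision.

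"At least N-fold" sets the mean of the group above background against the higher of the lowest well-above-background signal of each array and the dim value. Named genes were the 12 largest rises and 12 largest falls with an adjusted p under 0.05 and no overlap, up to 4 members of smallest p of each list described, and fixed genes of acid secretion, xenobiotic response, inflammation and barrier. The members and lists were chosen with earlier results of these data known. On simulated data of 13616 genes, 100 were changed by 1 log2 unit and 100 by 2. The fit recovered 49% and 91% of them, with 13 false calls. Far fewer genes were changed there than were called here, so these shares do not give the recovery in this comparison. Alternatives covered scaling, background, filters, the value table, arrays in the fit, array weights, probe averaging, a replicate block and leaving out each array; leaving sham replicate 2 out of the fit and raising dim signals were added after seeing the data. Arrays were not paired by replicate number in the main fit. Deviations from the group mean correlated at -0.0264, -0.0472, 0.0609 and 0.286 between untreated and omeprazole arrays of numbers 1 to 4. Arrays of different numbers were not set beside these, so whether the numbers pair the arrays was not tested.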

Additional observations from a re-analysis of the deposited data

Results flagged for a closer look

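Among 260 groups of 4 values tested, 15 held an array whose gap to the nearest of the others exceeded Dixon's critical value; chance gives about 1 in 20 such groups. Omeprazole replicate 1 lay below its group for Alb (-5.21), Il6 (-7.62), Itgam (-1.51), Grhl3 (1.99) and Col17a1 (2.37). Omeprazole replicate 4 lay below it for Lox (-2.15) and Flt1 (-3.83) and above it for Cldn3 (0.435), Actn3 (5.85) and Srebf1 (1.04). Omeprazole replicate 3 was the highest for Adamts4 (-6.61). Adamts4 and Il6 were well above background on no omeprazole array, so their flags lie among signals near background. Untreated replicate 1 lay above its group for Mx1 (1.29) and Irf1 (3.12), and untreated replicate 2 lay below it for Hmox1 (1.39) and above it for Prdm1 (-0.702).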

How the results depend on the processing

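The count of 3613 genes for omeprazole against untreated stayed within 1.5 times under all alternatives run, with 2556 when only those arrays were fitted and 2544 to 3961 when single arrays were left out. The count of 30 genes against high-dose STW5 did not: it was 68 with normexp background correction, 1022 with the deposited value table (whose STW5 columns match the other dose), 18 with the filter at 10 arrays, 1183 with only those arrays fitted, 2261 with array weights, 66 with dim signals raised and 5 to 22 with single arrays left out. With a replicate block the counts were 3986 and 76; the numbers share no stated source. With sham replicate 2 out of the fit, chosen after seeing the data, they were 3597 and 27. Of 1040 values of 130 named genes with an array left out, 36 lost their call and none reversed; of 1674 under other alternatives 25 lost it, 9 gained it and 1 reversed, Atp4a, at -0.0322 (adjusted p = 0.898) with normexp. The causes were not tested. Signals near background limit Cyp1a1, Il6 and the other genes given as bounds.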

Other observations

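Counts of the remaining gene lists stand beside 14.6% higher and 12.3% lower over all genes outside the slide set. Where few members were measured, a share is imprecise. Of 15 measured circadian clock genes 4 rose and none fell, with a median change of 0.12, close to the 0.10 of all genes. Among 15 genes of pain, bradykinin and neuropeptide signalling 3 rose and 2 fell, with a median of 0.50, shares near the 14.6% higher and 12.3% lower of all genes. Schwann cell and neuron markers gave 2 rises and 1 fall among 14 measured, with a median of 0.64, and their mean ranged from -0.22 to 0.58 on the omeprazole arrays and from -0.91 to -0.002 on the untreated arrays. Of 17 genes of the unfolded protein and heat shock responses 1 fell and none rose. Among 8 measured mucin and gland genes 3 rose. Of 5 hepatocyte markers 2 rose and 1 fell, and of 7 thyroid and airway markers 2 fell.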
